A study of Mus musculus with 28 samples.

Results

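The families miR-297, miR-466, miR-467 and miR-669 are mouse microRNAs whose hairpins lie mostly inside one intron of Sfmbt2. Their members were every mature microRNA whose name began with one of these 4 stems followed by a letter or a hyphen. There were 71 such names among the 1485 mature names counted in the series, namely 6 of miR-297, 30 of miR-466, 10 of miR-467 and 25 of miR-669.

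Small RNA was sequenced from 28 samples of the left ventricular wall of neonatal Hsd:ICR(CD-1) mice. Myocardial infarction (MI) was produced on postnatal day 1 (P1) or postnatal day 7 (P7) by tying off the coronary artery that supplies the front of the left ventricle (LAD ligation), and sham-operated mice were the controls. Tissue came from the remote zone, away from the infarct, and was taken 3 or 21 days after the operation. The groups 3 days after the operation were MI at P1 and sham at P1, both 4 days old at sampling, and MI at P7 and sham at P7, both 10 days old, with 4 libraries each. The groups 21 days after the operation were MI at P1 and sham at P1, both 22 days old, and MI at P7 and sham at P7, both 28 days old, with 3 libraries each. All groups are wild type and no agent other than the operation is named. The labels do not state that each library came from its own animal, so p-values measure the spread between these libraries. The 2 follow-up times used different library kits and sequencers, and no level is set across them.

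Sfmbt2 encodes a Polycomb group protein. In mice it is imprinted and expressed from the paternal copy in the early embryo and the placenta, and the microRNA cluster in its intron is found in rodents and is known mainly for a role in placental growth. Its hairpins arose by repeated duplication, so many mature microRNAs differ by few bases or none. In mouse, miR-669a is known to hold back skeletal muscle differentiation of cardiac progenitor cells, miR-466h-5p has been described as promoting cell death under nutrient stress, and miR-669c has been reported as raised in old liver.

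The files listed the 71 names under 76 hairpins, and 75 of these could be placed in the RefSeq gene table of GRCm38.p6. Of them, 69 lay inside Sfmbt2 (GRCm38 chr2:10370510-10595253), between positions 10466663 and 10518279, a span of 51.6 kb. All 69 fell in intron 10 of the 23-exon transcript Sfmbt2-201, and 0 overlapped an exon of any Sfmbt2 transcript. The intron held 5 miR-297, 23 miR-466, 14 miR-467 and 27 miR-669 hairpins. The 11 hairpins of mir-467a and mir-467b followed one another at a median step of 2.45 kb. The other 6 placed hairpins were mir-297a-1 on chromosome 7, a mir-466f copy and mir-466i on chromosome 13, mir-466j on chromosome 10, and mir-466k and mir-466q on chromosome 3.

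**Figure D1:**
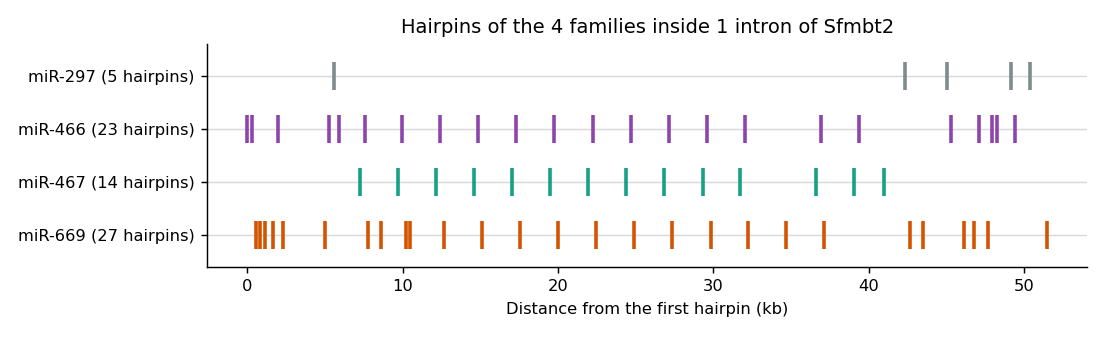
Position of the hairpins inside Sfmbt2, as the distance in kb from the first hairpin (horizontal axis), with a row for each family and a bar for each hairpin. The miR-466, miR-467 and miR-669 hairpins repeat at a median step of 2.44, 2.45 and 2.43 kb, and the 5 miR-297 hairpins lie mostly at the far end.

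RefSeq's mature sequences on GRCm38.p6 were matched to 4 members, all of them from hairpins outside Sfmbt2. They are shown because no other member was matched to a sequence, and they carry repeats of alternating bases. The seed, bases 2 to 8, is in capitals.
miR-466i-3p: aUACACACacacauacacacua
miR-466j: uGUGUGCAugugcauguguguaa
miR-466k: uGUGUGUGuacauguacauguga
miR-466q: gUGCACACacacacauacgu
They lie on the plus strand at chr13:17747552-17747573 (miR-466i-3p), chr10:60960802-60960824 (miR-466j), chr3:85467396-85467418 (miR-466k) and chr3:28419988-28420007 (miR-466q). The longest run of C alternating with A, or U alternating with G, was 11 bases in miR-466i-3p, 7 in miR-466j, 9 in miR-466k and 12 in miR-466q. A run of at least 6 such bases was present in 49 of the 1679 mature sequences of the table (2.92%), and in all 4 of these members. No other mature sequence of the table had the seed of any of the 4. Only these 4 of the 71 members were matched to a sequence, so a seed or repeat shared with other members could not be seen. The hairpin of miR-466k, of 122 bases at chr3:85467377-85467498, shows how far the repeat can run, with 23 bases of alternating U and G and the mature part in capitals.
miR-466k hairpin: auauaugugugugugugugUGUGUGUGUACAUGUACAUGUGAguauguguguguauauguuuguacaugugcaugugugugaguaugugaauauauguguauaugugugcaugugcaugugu

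Many names held the same reads. Names that reached 10 reads in some library were compared, and those agreeing to within 10% or 2 reads in every library were grouped. By this rule 19 names fell into 8 groups, and at most 60 distinct values remained of the 71. Names that never reached 10 reads were not compared, and some of them were nearly the same, such as miR-466m-5p and miR-669m-5p. miR-669a-3p and miR-669o-3p had identical counts throughout, as did miR-467a-5p and miR-467b-5p, and miR-297a-3p, miR-297b-3p and miR-297c-3p. miR-466b-3p and miR-466c-3p were also identical, and miR-466e-3p and miR-466p-3p differed from them by a few reads. miR-466a-3p was nearly the same as miR-466b-3p at 3 days. It stayed outside that group because the 2 differed at 21 days, with 64 against 52 reads in MI P1 replicate 2. Wherever shared reads are counted once below, miR-466a-3p still counts as a separate member. Each such group is 1 measurement under several names, and the counts cannot show which hairpin its reads came from.

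Library totals, after keeping the highest count over hairpins for each mature name, were 0.858 to 8.90 M reads at 3 days and 14.9 to 21.5 M (mega) reads at 21 days. All 5 cardiomyocyte markers (miR-1a-3p, miR-133a-3p, miR-208a-3p, miR-208b-3p and miR-499-5p) were listed in every group, with summed levels of 88800 to 324000 counts per M counts (CPM) at 3 days and 56000 to 157000 CPM at 21 days. Of 7 microRNAs of pluripotent, early embryonic or trophoblast cells, 6 were not listed at 3 days and 3 were not listed at 21 days. Their summed level stayed at or below 0.407 CPM at 3 days and 0.296 CPM at 21 days. Within the 3-day sham P1 group, libraries whose titles carry the code 1103 (replicates 3 and 4) stood apart from those with the code 1078 (replicates 1 and 2). The 2 libraries with code 1103 held 1.05 and 1.77 M reads, against 4.23 and 6.25 M reads with code 1078, and the labels do not say what the code marks. The summed endothelial markers miR-126a-3p and miR-126a-5p had 3910 to 6200 CPM with code 1103 and 121000 to 158000 CPM with code 1078. No other group contains either code, so the fold changes of the named members against sham P1 at 3 days are also given without one pair or the other. No title code is shared between groups at either follow-up time. Group and title code therefore cannot be told apart in any comparison.

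The 4 families were a small part of the heart's microRNA. Summed over names, they made up 0.0279 to 0.0796% of a library's total at 3 days, where 67 names were listed in at least 1 library and 13 in every library. Reads listed under several names count each time in this share, so it is not a share of distinct reads. In sham P1 replicate 3 at 3 days, for instance, the summed 804 CPM fell to 614 CPM with shared reads counted once. At 21 days the share, summed in the same way, was 0.00591 to 0.0102%, with 68 names listed in at least 1 library and 42 in every library. A count of 0 allows up to 3 reads, which corresponds to 0.28 to 3.78 CPM at 3 days and 0.131 to 0.235 CPM at 21 days, and these limits cover counting error only. After the filter on low counts, 14 members were among the 446 names tested at 3 days and 34 among the 598 tested at 21 days. No miR-297 name was tested at 3 days. The other 57 members at 3 days and 37 at 21 days were too low, with at most 49 reads (miR-297a-3p) and 17 reads (miR-669e-5p) in any library.

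The 5p and 3p arms of a hairpin were far from equal in most cases. miR-669c was read almost wholly as its 5p arm, with 5743 reads of miR-669c-5p and 5 of miR-669c-3p over the 16 libraries at 3 days, and 778 and 2 over the 12 libraries at 21 days. miR-467e-5p and miR-467c-5p also dominated their 3p partners, with 739 reads against 25 and 520 against 6 at 21 days. miR-466a showed the opposite bias, with 1201 reads of miR-466a-3p and 6 of miR-466a-5p at 3 days, and 514 and 73 at 21 days. The 3p arm of miR-669a was the higher arm in 16 of 16 libraries at 3 days (2143 against 45 reads) and in 12 of 12 at 21 days (1549 against 1019 reads). The 5p arm of miR-467d was the higher arm in 16 of 16 and in 12 of 12 libraries. The counts of miR-467d-3p were those of miR-467a-3p, so their hairpin cannot be told. The same holds for miR-669a-3p, with the counts of miR-669o-3p, and for miR-669a-5p, with those of miR-669p-5p. It also holds for miR-297a-3p, with the counts of miR-297b-3p and miR-297c-3p. At 3 days miR-466a-3p had nearly the counts of miR-466b-3p, with at most 335 and 336 reads. For these names the arm values are not those of a single hairpin. For miR-297a the 3p arm had 109 reads and the 5p arm 38 at 3 days, where 49 of the 109 came from 1 library, MI at P1 replicate 2, and each arm was the higher one in 7 libraries. At 21 days the 5p arm of miR-297a had 105 reads and the 3p arm 90, with the 5p arm higher in 5 libraries and the 3p arm in 3.

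At 3 days after the operation the highest member was miR-669c-5p, with a mean of 173 CPM over the 16 libraries. Next came miR-669a-3p with its twin miR-669o-3p at 58.2 CPM and the miR-466 3p group at 23.7 CPM. miR-467d-5p followed at 10.9 CPM, miR-467e-5p at 4.79 CPM and miR-467c-5p at 4.06 CPM, while the 3 miR-297 3p names stood at 1.35 CPM. The miR-669 family therefore held most of the summed signal in most libraries, with 43.0 to 56.8% of it in MI P1 libraries, 47.5 to 72.1% in sham P1, 60.2 to 66.5% in MI P7 and 63.2 to 73.7% in sham P7. These shares count shared reads under each name, so they depend on how many names a read carries. With shared reads counted once, the family averaged 128 of 222 CPM in MI P1, 268 of 378 CPM in sham P1, 223 of 329 CPM in MI P7 and 362 of 472 CPM in sham P7.

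For MI against sham at P1, 0 members were called higher and 1 of 14 was called lower at an adjusted p under 0.05, where 18.4% of all 446 names were called and 17% were called lower. The median log2 fold change was -0.03 over the members and 0.03 over all names tested. Without code 1103 these medians were -0.24 and -0.23, and without code 1078 they were -0.25 and -0.01. Counting names that share reads once, the median was -0.58 over the 10 distinct members and -0.06 over all 442 names of that fit. In that count miR-466a-3p stayed apart from miR-466b-3p, although their reads at 3 days were nearly the same. In bulk tissue, fewer cells of a type and less RNA per cell cannot be told apart. The member called was miR-466h-5p. It had 0.998, 0.746, 2.24 and 1.89 CPM in MI P1 hearts, against 3.73, 2.25, 18.3 and 9.14 CPM in sham P1 hearts. Every sham library lay above every MI library, by little for the code 1078 pair and by far for the code 1103 pair. The log2 fold change was -2.41 ± 0.65 (SE, n = 4 each), with an adjusted p of 0.0235 by edgeR's quasi-likelihood test. In reads, the MI P1 libraries held 6 to 11 and the sham P1 libraries 12 to 19, so the value rests on few molecules. Without the code 1103 libraries the log2 fold change was -1.16 (adjusted p = 0.468), and without the code 1078 libraries it was -3.43 (adjusted p = 1.9e-05). The call was lost without any one of MI P1 replicates 1, 2 and 4 or sham P1 replicates 3 and 4, at adjusted p of 0.0563 to 0.111. Over all 27 alternatives the adjusted p ranged from 1.9e-05 to 0.468 and was under 0.05 in 16.

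The most abundant member moved with the same split. miR-669c-5p had 70.3, 67.7, 117 and 89.6 CPM in MI P1 hearts, against 96.5, 115, 358 and 206 CPM in sham P1 hearts. The code 1078 pair lay within the range of the MI libraries, and the code 1103 pair lay well above it. The log2 fold change of -1.17 ± 0.40 had an adjusted p of 0.0517 by edgeR and was not called. It was -0.38 (adjusted p = 0.633) without code 1103 and -1.93 (adjusted p = 6.41e-05) without code 1078. miR-467d-5p had 4.32, 5.22, 5.49 and 3.78 CPM in MI P1 hearts, against 4.89, 6.01, 22.2 and 17.2 CPM in sham P1 hearts. The MI values overlapped those of the code 1078 pair, and the log2 fold change of -1.35 ± 0.47 had an adjusted p of 0.0522 by edgeR. For miR-467d-5p too the pairs gave different answers, with -0.265 (adjusted p = 0.798) without code 1103 and -2.23 (adjusted p = 7.77e-05) without code 1078. Without the code 1103 libraries 0 members and 0 of all names were called in this comparison, while without the code 1078 libraries 9 members and 348 names were. Cardiomyocyte markers summed to 88800 to 158000 CPM in MI P1 libraries, against 157000 to 161000 CPM with code 1078 and 227000 to 254000 CPM with code 1103. The skeletal muscle marker miR-206-3p had 29.3 to 153 CPM in MI P1 libraries, against 16.1 to 30.2 CPM with code 1078 and 5.38 to 18.3 CPM with code 1103. The part of these markers in the members' values was not tested.

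**Figure D2:**
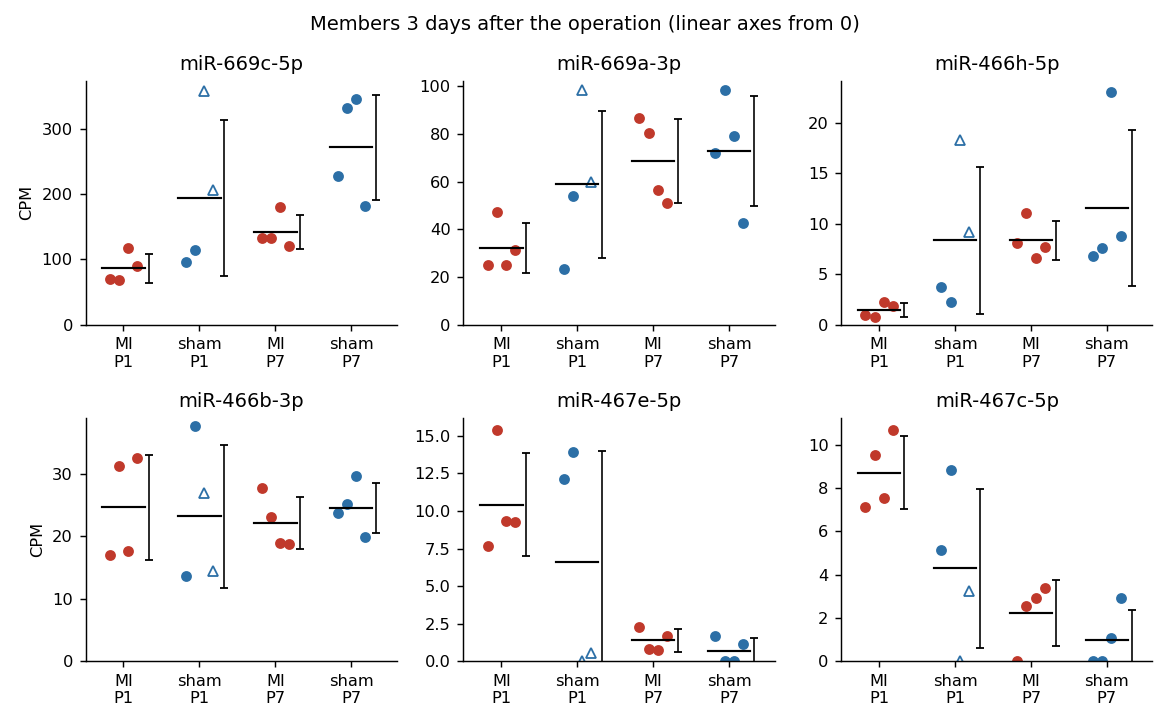
CPM (vertical axes, linear from 0) of 6 members in each library 3 days after the operation, by group, with MI in red and sham in blue. Lines are means and bars are SD (n = 4, cut at 0), and open triangles are the sham P1 libraries with title code 1103. miR-467e-5p stands at 7.65 CPM or more in all MI P1 libraries and in the 2 sham P1 libraries with code 1078, and at 2.31 CPM or less in the other 10.

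Opposite patterns ran through these 16 libraries. miR-467e-5p had 46, 165, 46 and 44 reads in MI P1 libraries and 52 and 74 in the code 1078 sham P1 libraries. It had 0 and 1 in the code 1103 sham P1 libraries, 1 to 2 in each MI P7 library and 0 to 2 in each sham P7 library. The 6 libraries with 44 or more reads of it were also the 6 deepest, at 3.85 to 8.90 M reads, against 0.858 to 2.17 M reads in the other 10. Scaled to library size the gap remained, at 7.65 to 15.4 CPM against 0 to 2.31 CPM. miR-467c-5p went the same way, with 7.15 to 10.7 CPM in MI P1 libraries, 5.13 and 8.82 CPM with code 1078, 0 and 3.23 CPM with code 1103, 0 to 3.41 CPM in MI P7 libraries and 0 to 2.93 CPM in sham P7 libraries. miR-669c-5p ran the other way, with 121 to 180 CPM in MI P7 libraries and 181 to 346 CPM in sham P7 libraries. Across the 10 distinct members tested, the Spearman correlation of their CPM over the 16 libraries had a median of 0.094 and was lowest between miR-467e-5p and miR-669c-5p (-0.906). All of these values share the depth and the split of the libraries, and no p is given. The endothelial markers moved with the first pattern, at 83600 to 104000 CPM in MI P1, 121000 to 158000 CPM with code 1078, 3910 to 6200 CPM with code 1103, 9770 to 21400 CPM in MI P7 and 12900 to 36700 CPM in sham P7. Their part in the members' values was not tested. The miR-466 3p group did not follow either pattern: miR-466b-3p had 17.1 to 32.6 CPM in MI P1, 13.7 to 37.7 CPM in sham P1, 18.8 to 27.7 CPM in MI P7 and 19.9 to 29.6 CPM in sham P7, and the 4 groups overlapped.

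Among mice operated at P7, 0 of 14 members were called between MI and sham hearts 3 days after the operation, where 5.61% of all names were called. At an unadjusted p under 0.05 there was 1 member, miR-669c-5p, against 89 of all 446 names. The DESeq2 Wald test also called 1 member. miR-669c-5p had 132, 133, 180 and 121 CPM in MI P7 hearts, against 227, 331, 346 and 181 CPM in sham P7 hearts. The highest MI library lay just under the lowest sham library, and the log2 fold change of -0.94 ± 0.40 had an adjusted p of 0.188 by edgeR. With only the MI P7 and sham P7 libraries in the fit, the log2 fold change had an adjusted p of 0.0458, and over the 27 alternatives the adjusted p ranged from 0.0215 to 0.996. These libraries do not carry the codes 1078 and 1103. Sham P7 has the code 1075 and MI P7 the codes 1077, 1088 and 1090, so operation and code cannot be told apart here. miR-467c-5p (0.94 ± 1.04, adjusted p = 0.755) and miR-467d-5p (0.39 ± 0.49, adjusted p = 0.795) came next by unadjusted p in the edgeR fit. Cardiomyocyte markers summed to 153000 to 170000 CPM in MI P7 libraries and 211000 to 324000 CPM in sham P7 libraries, and the skeletal muscle marker miR-206-3p had 16.2 to 41.0 CPM in MI P7 and 0.848 to 3.51 CPM in sham P7. Neither marker set overlapped between these groups, and its part in the members' values was not tested.

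The difference between the MI effect at P7 and the MI effect at P1 was tested directly, and 0 members and 0% of all names were called at 3 days. At an unadjusted p under 0.05 there were 2 members, against 71 of all 446 names. The DESeq2 Wald test called 0 members. The smallest p belonged to miR-467d-5p, with a difference of 1.74 ± 0.68 on the log2 scale (adjusted p = 0.277 by edgeR). miR-466h-5p had 1.96 ± 0.90 (adjusted p = 0.296) and miR-669f-3p 1.27 ± 0.84 (adjusted p = 0.42). All 3 passed only without the code 1078 libraries, where the adjusted p was 0.000772, 0.00188 and 0.024. Without the code 1103 libraries the difference was 0.63 for miR-467d-5p, 0.69 for miR-466h-5p and 0.42 for miR-669f-3p, with adjusted p of 0.729 to 0.835, and 0 members were called.

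Between the sham groups at 3 days, 10 and 4 days old, 0 members were called higher and 1 was called lower, where 22% of all names were called and 18.2% were called lower. The median log2 fold change was 0.08 over the members and -0.53 over all names tested. These medians were 0.17 and -0.28 without code 1103, and -0.015 and -0.08 without code 1078. The member called was miR-467e-5p, with 1.70, 0, 0 and 1.17 CPM in sham P7 hearts, against 12.1, 13.9, 0 and 0.538 CPM in sham P1 hearts. The sham P7 libraries overlapped the code 1103 pair and lay below the code 1078 pair. The log2 fold change was -3.05 ± 1.06 (adjusted p = 0.0484 by edgeR). It was -3.79 (adjusted p = 4.69e-05) without code 1103 and 1.22 (adjusted p = 0.609) without code 1078, so its direction depended on which pair stood for sham P1. With single libraries left out, the call held without sham P1 replicate 3 (adjusted p = 0.00879) or replicate 4 (adjusted p = 0.0128) and was lost without any other library. miR-467c-5p had a log2 fold change of -1.94 ± 0.93 (adjusted p = 0.134), which was -2.37 (adjusted p = 0.00572) without code 1103 and -0.65 (adjusted p = 0.724) without code 1078. miR-669c-5p had a log2 fold change of 0.49 ± 0.40 (adjusted p = 0.382). It was called higher without code 1103, at 1.48 (adjusted p = 0.00169), and turned to -0.015 (adjusted p = 0.979) without code 1078. In all, 8 members and 352 names were called without code 1103, and 1 member and 73 names without code 1078.

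Summed over names, the families are given as values with no test, because names within a family share reads and a sum counts shared reads under each name. The miR-669 sum averaged 161 ± 23.4 CPM with MI at P1 and 328 ± 185 CPM in sham P1 hearts (SD, n = 4 each), and 292 ± 38.8 CPM in MI P7 and 437 ± 128 CPM in sham P7 hearts. Within sham P1 it was 344 to 579 CPM with code 1103 and 152 to 235 CPM with code 1078, and the code 1078 pair overlapped the MI P1 range of 127 to 177 CPM. The miR-466 sum averaged 141 ± 44.2 CPM in MI P1 hearts, 155 ± 60.1 CPM in sham P1 hearts, 151 ± 29.8 CPM in MI P7 hearts and 171 ± 25.2 CPM in sham P7 hearts. The groups overlapped, and with total count scaling the MI means of the miR-466 sum were the higher ones, at 169 CPM in MI P1, 148 CPM in sham P1, 166 CPM in MI P7 and 135 CPM in sham P7. With shared reads counted once the miR-466 sum averaged 66.0 CPM in MI P1, 82.3 CPM in sham P1, 83.2 CPM in MI P7 and 92.6 CPM in sham P7. That sum still counts miR-466a-3p beside miR-466b-3p, although their counts were nearly the same. miR-466a-3p averaged 24.5 CPM in MI P1, 22.9 CPM in sham P1, 22.7 CPM in MI P7 and 24.6 CPM in sham P7. Counted once, the miR-669 sum averaged 128 CPM in MI P1, 268 CPM in sham P1, 223 CPM in MI P7 and 362 CPM in sham P7. The miR-467 sum averaged 27.4 ± 5.75 CPM in MI P1 hearts, 25.9 ± 5.81 CPM in sham P1 hearts, 21.2 ± 3.15 CPM in MI P7 hearts and 15.5 ± 3.06 CPM in sham P7 hearts. At P7 its lowest MI library, at 18.8 CPM, stood just above its highest sham library, at 18.6 CPM. With shared reads counted once these groups overlapped, at 16.3 to 24.2 CPM in MI P7 and 10.1 to 17.6 CPM in sham P7. The miR-297 sum stayed at or below 14.4 CPM, with 6.99 ± 5.09 CPM in MI P1 hearts, 7.94 ± 3.81 CPM in sham P1 hearts, 2.59 ± 1.74 CPM in MI P7 hearts and 4.28 ± 2.65 CPM in sham P7 hearts. The groups overlapped, and with total count scaling the mean at P1 was 8.37 CPM in MI and 7.56 CPM in sham hearts. With shared reads counted once the miR-297 sum averaged 2.82 CPM in MI P1, 3.34 CPM in sham P1, 2.01 CPM in MI P7 and 2.86 CPM in sham P7 hearts.

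**Figure D3:**
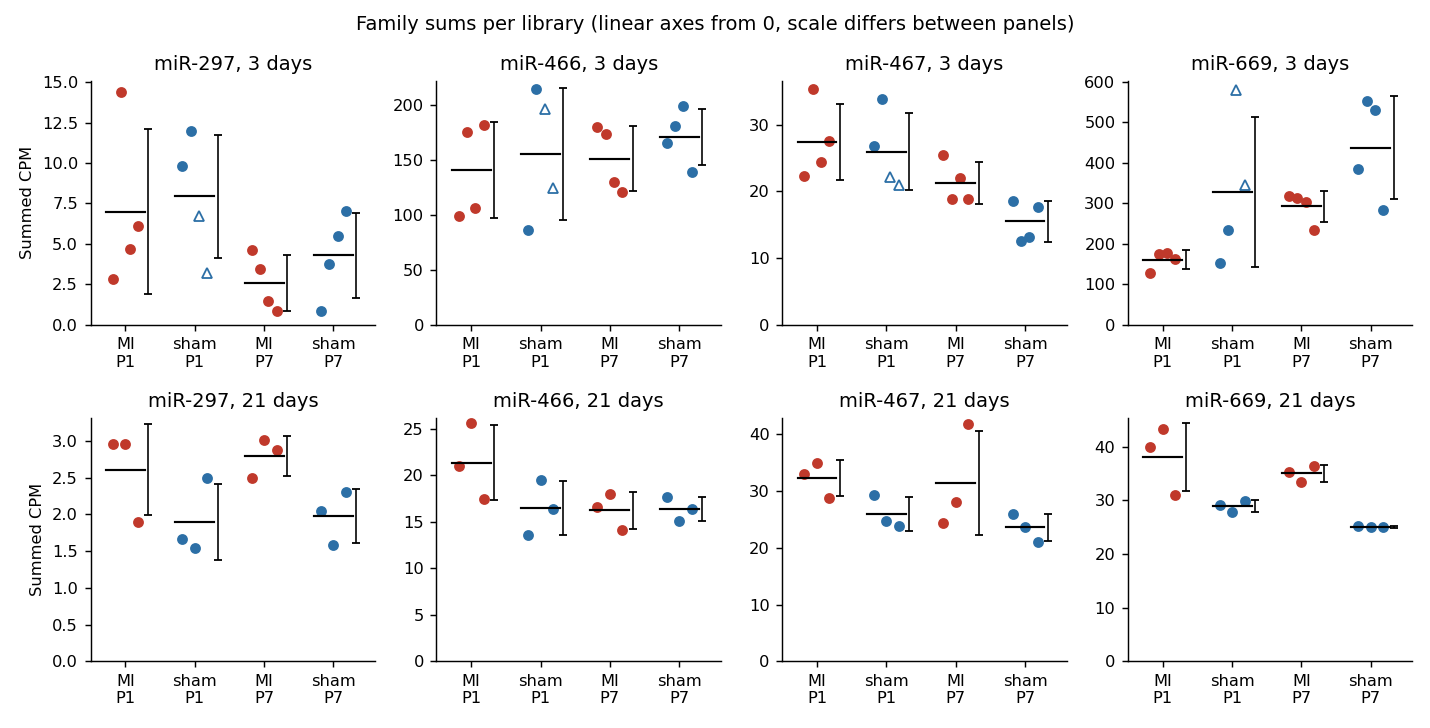
Summed CPM of each family (vertical axes, linear from 0) in every library, by group, 3 days (top) and 21 days (bottom) after the operation, with MI in red and sham in blue. Lines are means and bars are SD (n = 4 at 3 days, n = 3 at 21 days), and open triangles are the sham P1 libraries with title code 1103. At 21 days the miR-669 sum lies at 33.4 to 36.4 CPM in MI P7 and 25.0 to 25.3 CPM in sham P7.

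At 21 days after the operation miR-467a-5p, with the same reads as miR-467b-5p, was the highest member at a mean of 8.14 CPM over the 12 libraries. miR-669a-3p with miR-669o-3p averaged 6.79 CPM, miR-669a-5p 4.46 CPM and miR-467d-5p 3.93 CPM. miR-466a-3p led its family at 2.29 CPM, and miR-297b-5p led the miR-297 names at 0.583 CPM.

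For MI against sham at P7, 3 of the 34 members tested were called higher and 0 lower, where 22.1% of all 598 names were called and 13.2% were called higher. The 3 names are 2 measurements, since miR-669a-3p and miR-669o-3p share their reads. miR-669a-3p had 9.51, 6.68 and 9.48 CPM in MI P7 hearts, against 5.64, 4.83 and 5.28 CPM in sham P7 hearts. The groups did not overlap, and MI replicate 2 was the closest to the sham libraries. The log2 fold change was 0.71 ± 0.20 (SE, n = 3 each), with an adjusted p of 0.0232 by edgeR. miR-669b-5p had 1.35, 1.81 and 1.71 CPM in MI P7 hearts, against 0.470, 1.13 and 0.550 CPM in sham P7 hearts. Here too the groups did not overlap, although the lowest MI library stood only slightly above sham replicate 2. The log2 fold change was 1.13 ± 0.33 (adjusted p = 0.0268 by edgeR), from 26 to 39 reads in the MI P7 libraries and 6 to 23 in the sham P7 libraries.

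These calls were close to the threshold. Over 23 alternatives the adjusted p of miR-669a-3p ranged from 0.00364 to 0.096 and was under 0.05 in 17, and that of miR-669b-5p ranged from 0.00728 to 0.162 and was under 0.05 in 18. With only the MI P7 and sham P7 libraries in the fit neither was called, at adjusted p of 0.096 and 0.098. Leaving out sham P7 replicate 3 left 0 members called, leaving out MI P7 replicate 1 or sham P7 replicate 2 left 1 (miR-669b-5p), leaving out sham P7 replicate 1 left miR-669a-3p and its twin, and leaving out MI P7 replicate 2 gave 6. Over all names, the fits that left out 1 library called 60 to 190. For miR-669a-3p and miR-669b-5p the direction stayed positive under every alternative run.

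miR-467a-5p, for which a repressing effect on thrombospondin-1 has been described in mouse, had 7.53, 7.37 and 15.3 CPM in MI P7 hearts, against 7.44, 5.96 and 5.72 CPM in sham P7 hearts. Replicate 3 of MI P7, with 313 reads, stood alone, and the other MI libraries lay near the highest sham library. Its log2 fold change of 0.66 ± 0.27 had an adjusted p of 0.0908 by edgeR. miR-466c-5p had 1.51, 2.23 and 2.79 CPM in MI P7 hearts, against 1.57, 1.33 and 1.10 CPM in sham P7 hearts. The groups overlapped at MI replicate 1, and the log2 fold change of 0.72 ± 0.28 had an adjusted p of 0.0874. The lowest fold change among the members was that of miR-669l-5p (-1.22 ± 0.52, adjusted p = 0.106), with 0.208, 0.464 and 0.147 CPM in MI P7 hearts, against 0.861, 0.641 and 0.495 CPM in sham P7 hearts.

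Among mice operated at P1, 0 of 34 members were called between MI and sham hearts 21 days after the operation, where 0.502% of all names were called. At an unadjusted p under 0.05 there were 2 members, against 43 of all 598 names. The DESeq2 Wald test and limma-voom called 0 members. The 3 smallest p belonged to miR-669b-5p (0.76 ± 0.30), miR-466c-5p (0.67 ± 0.28) and miR-669c-5p (0.50 ± 0.23), each with an adjusted p of 0.648 by edgeR. miR-669b-5p had 2.90, 2.08 and 1.94 CPM in MI P1 hearts, against 1.52, 1.29 and 1.27 CPM in sham P1 hearts. miR-466c-5p had 1.85, 2.02 and 2.00 CPM in MI P1 hearts, against 1.43, 0.895 and 1.35 CPM in sham P1 hearts. In both cases the groups did not overlap, but the names were picked by their small p, so this is no separate support. miR-669c-5p overlapped, with 4.57, 6.40 and 3.89 CPM in MI P1 hearts, against 4.09, 3.08 and 3.32 CPM in sham P1 hearts.

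The fold changes of the members leaned to one side in both comparisons at 21 days. At P1, 31 of the 34 members tested had a positive log2 fold change, with a median of 0.37, against a median of -0.01 over all 598 names. At P7, 24 of 34 were positive, with a median of 0.49, against 0.03 over all names. Counting names that share reads once, 21 of 24 were positive at P1 with a median of 0.37, and 17 of 24 at P7 with a median of 0.39. Scaling by the total count in place of TMM shifted the median of all names to -0.20 at P1 and 0.38 at P7, and the members' median to 0.19 and 0.83. A change of scaling multiplies every name in a library by the same factor. The distance between the members' median and that of all names was therefore bound to stay similar. That it did is no separate support for the lean. Members of a cluster share a transcript and often reads, so these are not independent values and no test is given for them.

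**Figure D4:**
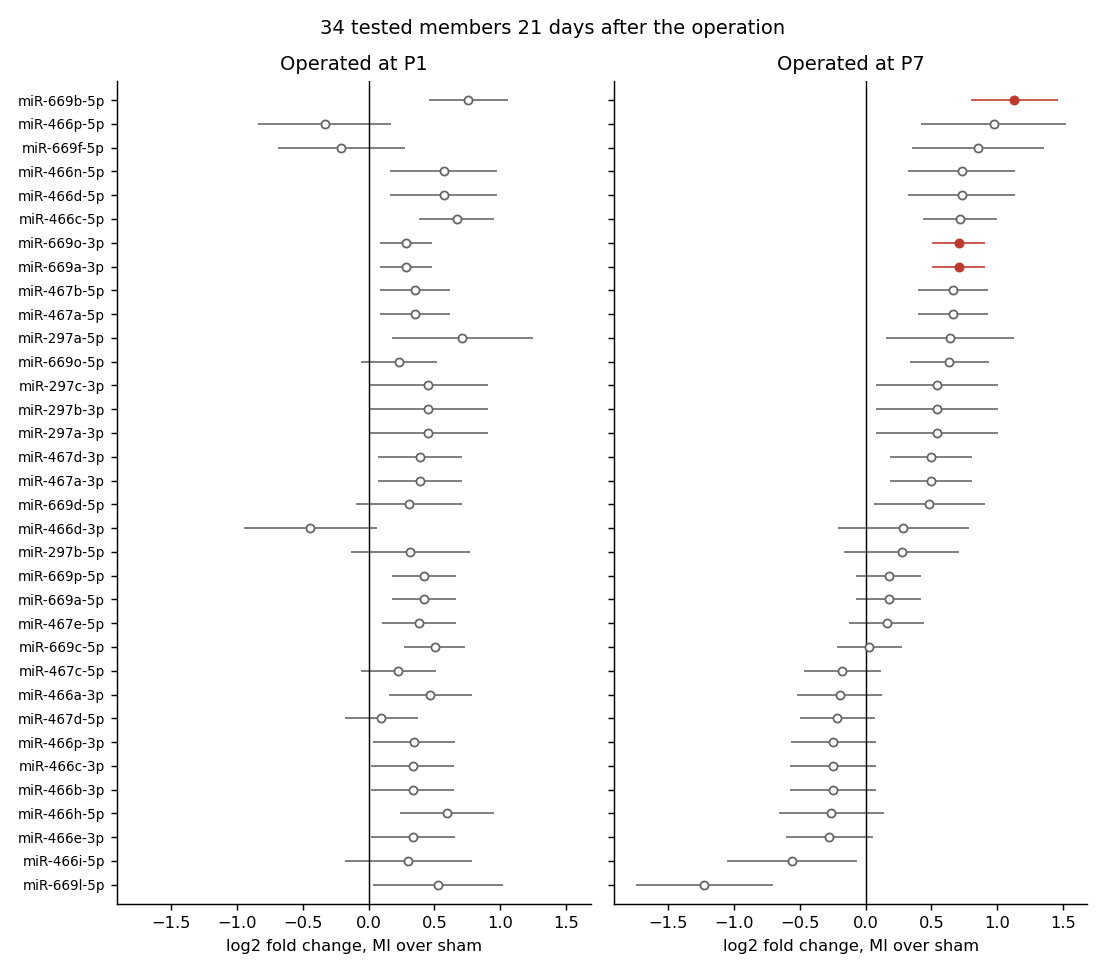
Log2 fold change of MI over sham (horizontal axes) for the 34 members tested 21 days after the operation, for mice operated at P1 (left) and at P7 (right), with points for the edgeR estimate and bars for its SE. Filled red points passed an adjusted p of 0.05, which 3 names did at P7 and 0 at P1, and 31 points lie right of 0 at P1 and 24 at P7.

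The family sums at 21 days are again values with no test. The miR-669 sum averaged 38.1 ± 6.29 CPM with MI at P1 and 29.0 ± 1.04 CPM in sham P1 hearts (SD, n = 3 each), and 35.0 ± 1.48 CPM in MI P7 and 25.1 ± 0.185 CPM in sham P7 hearts. Neither pair of groups overlapped, nor did they with shared reads counted once (25.1 CPM in MI P1, 18.8 CPM in sham P1, 22.2 CPM in MI P7 and 16.1 CPM in sham P7). The miR-466 sum averaged 21.4 ± 4.05 CPM with MI at P1 and 16.5 ± 2.99 CPM in sham P1 hearts, and 16.2 ± 1.98 CPM in MI P7 and 16.4 ± 1.31 CPM in sham P7 hearts, with overlap in both pairs. The order of the P7 means turned with total count scaling, at 18.7 CPM in MI and 14.7 CPM in sham hearts, and with shared reads counted once, at 10.4 CPM in MI and 9.82 CPM in sham hearts. Counted once, the P1 groups did not overlap, with a mean of 13.0 CPM in MI P1, and 9.14 to 10.8 CPM in sham P1, below every MI P1 library. The miR-467 sum averaged 32.2 ± 3.17 CPM with MI at P1 and 26.0 ± 2.97 CPM in sham P1 hearts, and 31.5 ± 9.25 CPM in MI P7 and 23.6 ± 2.44 CPM in sham P7 hearts. Its groups overlapped at P1, with 28.8 to 35.0 CPM in MI P1 and 23.8 to 29.4 CPM in sham P1, and at P7, where MI P7 replicate 3 had 41.9 CPM. With shared reads counted once they overlapped as well. The miR-297 sum averaged 2.61 ± 0.621 CPM with MI at P1 and 1.90 ± 0.514 CPM in sham P1 hearts, and 2.80 ± 0.271 CPM in MI P7 and 1.97 ± 0.370 CPM in sham P7 hearts, with overlap at P1 but not at P7. Cardiomyocyte markers summed to 56000 to 92600 CPM in MI P7 and 134000 to 157000 CPM in sham P7 libraries, and the endothelial pair to 31900 to 50300 CPM and 51900 to 58300 CPM. Erythroid markers summed to 6870 to 18000 CPM in MI P7 and 7320 to 8550 CPM in sham P7. The part of these markers in the members' values was not tested.

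**Figure D5:**
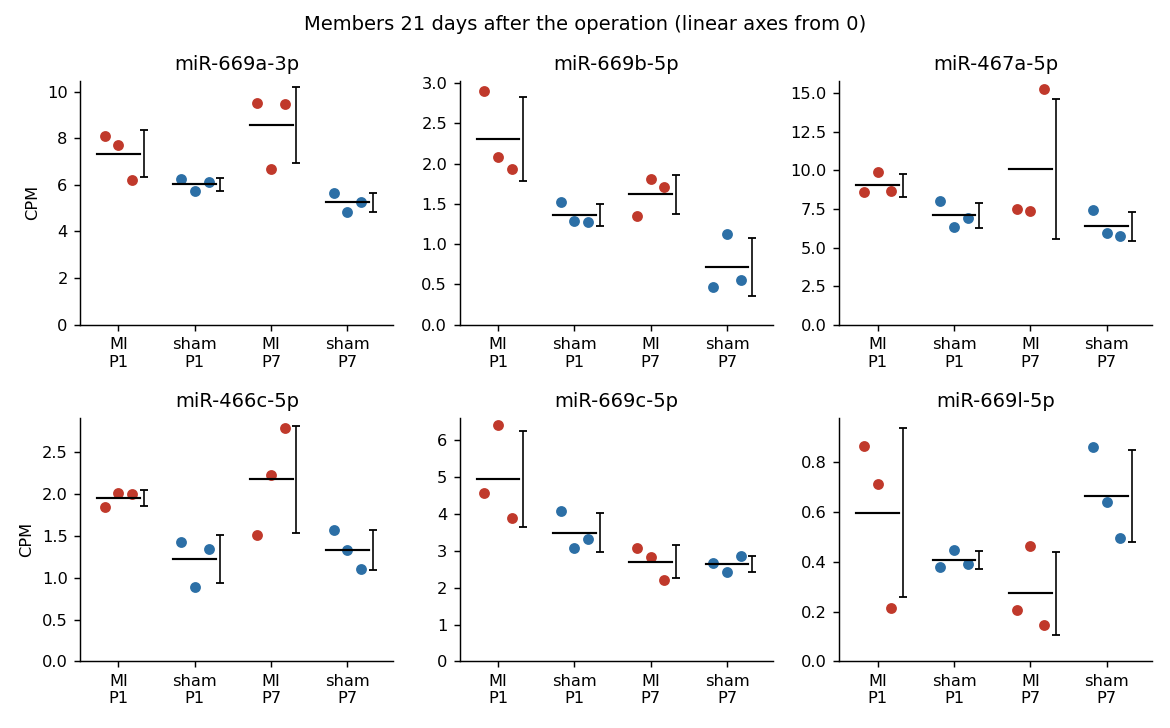
CPM (vertical axes, linear from 0) of 6 members in each library 21 days after the operation, by group, with MI in red and sham in blue. Lines are means and bars are SD (n = 3). miR-669a-3p lies at 6.68 to 9.51 CPM in MI P7 and 4.83 to 5.64 CPM in sham P7, and 1 MI P7 library of miR-467a-5p stands at 15.3 CPM.

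The difference between the MI effect at P7 and the MI effect at P1 was not called for any of the 34 members at 21 days, where 9.87% of all names were called. At an unadjusted p under 0.05 there was 1 member, against 166 of all 598 names. The DESeq2 Wald test called 0 members. The smallest p was that of miR-669l-5p, with a difference of -1.75 ± 0.72 (adjusted p = 0.139 by edgeR). miR-466p-5p had 1.31 ± 0.75 (adjusted p = 0.27) and miR-466h-5p -0.85 ± 0.54 (adjusted p = 0.308). For miR-669a-3p, called at P7 alone, the difference was 0.42 ± 0.28 (adjusted p = 0.328), and for miR-669b-5p it was 0.37 ± 0.45 (adjusted p = 0.612). Neither difference passed the test. Among the miR-466 3p names, miR-466b-3p had a log2 fold change of -0.25 ± 0.32 at P7 and 0.33 ± 0.31 at P1, with a difference of -0.58 ± 0.45 (adjusted p = 0.404).

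Between the sham groups at 21 days, 28 and 22 days old, 0 members and 0% of all names were called. At an unadjusted p under 0.05 there was 1 member, against 72 of all 598 names. The DESeq2 Wald test called 0 members. miR-669b-5p had 0.470, 1.13 and 0.550 CPM in sham P7 hearts, against 1.52, 1.29 and 1.27 CPM in sham P1 hearts. The log2 fold change of -0.87 ± 0.33 had an adjusted p of 0.258 by edgeR. The groups did not overlap, but the name was picked by its small p, so this is no separate support. miR-466p-5p (-1.02 ± 0.55, adjusted p = 0.488) and miR-669c-5p (-0.40 ± 0.24, adjusted p = 0.557) followed.

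Outside Sfmbt2 the placed names were mostly near the lower limit of detection. miR-466i-5p was the exception at 21 days, with 6 to 15 reads in each of the 12 libraries, and it was not called in any comparison there. miR-466q, whose sequence is given above, was erratic, with 35 reads in 1 sham P1 library with code 1103 at 3 days and 0 in 8 of the 16 libraries. At 21 days it had 15 reads in sham P7 replicate 3 and 0 in all 3 MI P7 libraries. miR-466k had at most 6 reads at 3 days and 4 at 21 days, miR-466j at most 3 and 2, and miR-466i-3p at most 4 and 1.

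Other microRNAs of imprinted loci, hosted by or near Mest, Igf2, H19 and Gnas, were set beside the cluster as a list of 10 names, of which 8 were tested at each follow-up time. Between MI and sham at P1, 3 of these 8 were called lower at 3 days, where 17% of all names were, and 0 were called at 21 days, where 0.502% were. Without code 1103 0 of the 8 were called at 3 days, as were 0 of all names. Without code 1078 2 of the 8 were called higher and 6 lower, where 164 of all 459 names were called higher and 184 lower. Between MI and sham at P7, 0 were called at 3 days (5.61% of all names). At 21 days 1 was called higher and 2 lower, where 13.2% of all names were called higher and 8.86% lower. Their median log2 fold change at 21 days was -0.15 at P7 and -0.04 at P1, against 0.49 and 0.37 for the cluster's members.

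The microRNAs outside the 4 families whose CPM followed the members' summed CPM most closely are named as a description, with no p. Over the 16 libraries at 3 days and 432 names they were miR-3077-3p (Spearman's rho 0.876), miR-339-5p (0.865), miR-874-3p (0.862), miR-7052-3p (0.856) and miR-25-5p (0.853). Over the 12 libraries at 21 days and 564 names they were miR-598-3p (0.783), miR-495-3p (0.699), miR-1a-1-5p (0.671), miR-500-5p (0.657) and miR-677-5p (0.65). All points share the libraries' depth and scaling. Among the members themselves, 204 of the 276 pairs of distinct members tested at 21 days had a positive rho, with a median of 0.227.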

How the data were processed

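The deposited files hold, per the file headers and values, 1 whole-number count of reads for each pair of hairpin and mature microRNA in each library. Per the submitters' processing notes the tools were Bowtie2 2.2.2 and edgeR and the build GRCm38; how reads mapping to several hairpins were shared, and whether molecular identifiers were used, is not given in the sources used here. Per the labels' protocols, RNA was isolated with TRIzol, 3-day libraries were made with a Qiagen QIAseq kit and 21-day libraries with an Illumina TruSeq kit, so the follow-up times were fitted apart. The deposited totals were 1.29 to 13.0 M counts at 3 days and 18.2 to 26.9 M counts at 21 days.

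The highest count over hairpins was kept for each mature name, names with few reads were removed (filterByExpr, minimum count 10), libraries were scaled by TMM, and edgeR 4.0.16 (R 4.3.3) fitted quasi-likelihood models with 4 groups per follow-up, with 12 residual degrees of freedom at 3 days and 8 at 21 days. Benjamini-Hochberg adjustment ran over all names tested, with a threshold of 0.05. CPM are TMM-scaled. The script was tested on simulated counts. Alternatives used limma 3.58.1 and DESeq2 1.42.0. The members, lists and tests were chosen with earlier results of these data known. Members are named by rule: the 3 highest of each family at each follow-up, every member called, where fewer than 3 were called the 3 smallest p, and the other arm of each family's highest member.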

Additional observations from a re-analysis of the deposited data

Results flagged for a closer look

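In groups of 4 libraries at 3 days, 92 sets of values for named members and family sums were examined for a library far from the other 3, and 10 had one. The rule is set to flag about 5% of sets by chance for continuous values. A set with reads in 1 library and 0 in the other 3 always passes it. The 10 of 92 therefore cannot be set against that 5%. The miR-669 sum in MI P7 was 235 CPM in replicate 4, against 304 to 317 CPM in the others. miR-466h-5p in sham P7 was 23.0 CPM in replicate 3, against 6.78 to 8.78 CPM in the others. The remaining cases were single libraries with 1 or 2 reads where the others had 0. These were miR-297a-3p, miR-297b-3p and miR-297c-3p at 1.15 CPM in MI P7 replicate 1, which are the same read, miR-466a-5p at 0.21 CPM in MI P1 replicate 4, 1.15 CPM in MI P7 replicate 1 and 0.586 CPM in sham P7 replicate 4, and miR-669c-3p at 1.08 CPM in sham P1 replicate 4 and 0.732 CPM in MI P7 replicate 3. All lie below the 3.78 CPM to which 3 reads can correspond in the shallowest library.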

How the results depend on the processing

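The number of members called moved most with the sham P1 libraries at 3 days. For MI against sham at P1 it was 1 as reported, 0 without title code 1103, 9 without title code 1078, 0 with total count scaling, with no filter, with limma-voom, with limma-voom when libraries of one title code formed a random block (correlation 0.642, where 0 of all names were called), and with only the groups compared, 2 with the DESeq2 Wald test and with counts summed over hairpins, and 3 with names sharing reads merged. Over all names, 82 were called as reported and 0 without code 1103. There were 164 higher and 184 lower without code 1078, and 7 higher and 103 lower with names merged. For sham P7 against sham P1 the number of members was 1 as reported and 8 without code 1103, where 153 of all names were called higher and 199 lower. It was 0 with limma-voom, with that random block, and with only the groups compared. For MI against sham at P7 it was 0 as reported and 1 with the DESeq2 Wald test, without either code, and with only the groups compared. Of all names, 62 were called higher and 31 lower without code 1103, and 56 higher and 32 lower without code 1078. For the P7 minus P1 effect at 3 days the number of members was 0, and 7 without code 1078, where 181 of all names were called higher and 120 lower. At 21 days, MI against sham at P7 gave 3 members as reported, 7 with total count scaling, and 0 with only the groups compared and with the title number as a replicate block, where 85 of all names were called against 132 without it. Total count scaling called 151 of all 598 names higher and 16 lower, against 79 and 53 as reported. The title numbers at 21 days did not pair the libraries: same-numbered libraries of different groups had correlations of their deviations from group means of -0.309 to 0.328, over 0.1 in 3 of 15 pairs. The P7 minus P1 effect at 21 days gave 0 members, and 2 with total count scaling and 1 with no filter. Total count scaling there called 135 of all names higher and 2 lower, against 47 and 12 as reported. Leaving out 1 library at a time at 3 days gave 0 to 6 members for MI against sham at P1 and 0 to 3 for the sham groups. It gave 0 for MI against sham at P7 and for the difference of effects. Over all names, those fits called 0 to 164 for MI against sham at P1 and 17 to 185 for the sham groups. At 21 days, leaving out 1 library gave 0 to 6 members for MI against sham at P7 and 0 to 1 for the difference of effects. It gave 0 for the other comparisons. Over all names, those fits called 60 to 190 for MI against sham at P7 and 16 to 117 for the difference of effects. All other alternatives run left the member counts within 1.5 times the value reported. The log2 fold change of miR-467e-5p between the sham groups at 3 days turned to 1.22 without code 1078, and that of miR-669c-5p to -0.015. For the other named members no alternative run turned the direction. Merging names by mature sequence was not run, because only 4 of the 71 names had one. The random block of title codes could not be fitted at 21 days, where each group has its own code. The lane 3 libraries alone, and names sharing reads merged, were chosen after seeing the data. Members had few reads at 3 days, which limits what can be seen there, and causes were not tested.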
